A study of Saccharomyces cerevisiae S288C with 18 samples.

Results

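The 8 genes examined here encode transcriptional regulators of ribosome production in Saccharomyces cerevisiae. They were taken by name and systematic name from the 6692 genes of the deposited count table: TOD6 (YBL054W), DOT6 (YER088C), STB3 (YDR169C), SFP1 (YLR403W), IFH1 (YLR223C), FHL1 (YPR104C), CRF1 (YDR223W) and SCH9 (YHR205W). All 8 passed the filter on low counts on both sequencing platforms, and in no library did a member have fewer than 88 counts. No member overlaps another gene of the R64 genome annotation or shares a 100-base stretch of coding sequence with one, so their reads can be told apart from those of these genes. The 687 identifiers of the count table that did not match this annotation were not checked.

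Yeast makes ribosomes in proportion to the growth that its nutrients allow, and it sets that rate largely by transcription. The genes for ribosomal proteins (RPs) are switched on by Ifh1, a coactivator that binds the forkhead protein Fhl1 at RP promoters, and Crf1 is a corepressor that competes with Ifh1 for Fhl1 in some laboratory strains. The genes for ribosome biogenesis factors, which process and assemble ribosomal RNA, carry the PAC and RRPE promoter elements. Tod6 and Dot6 are related Myb-type repressors that bind PAC, Stb3 is a repressor that binds RRPE, and all of them bring in the Rpd3L histone deacetylase complex. Sfp1 is a zinc-finger activator of both gene sets. Sch9 is a protein kinase activated by the nutrient-sensing complex TORC1, and it phosphorylates Tod6, Dot6 and Stb3 and so holds them off.

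RNA was sequenced from wild type cultures of the laboratory strain S288C grown in RPMI-1640 medium, with 3 biological replicates in each of 6 groups. Amphotericin B (AMB), an antifungal that binds ergosterol in the fungal membrane, was given at 0.03 µg/mL for 60 minutes and was set against an untreated control for AMB of 60 minutes. The combination AMB-LF held 0.03 µg/mL AMB with 2 µg/mL bovine lactoferrin (LF), an iron-binding milk protein, for 50 minutes, and was set against an untreated control for AMB-LF of 50 minutes. LF alone at 2 µg/mL for 50 minutes had its own untreated control for LF. The question for each pair was how the treatment changed the transcriptome, and for AMB-LF how this differed from AMB alone. AMB, AMB-LF and their controls were sequenced on a HiSeq over 2 lanes, with 6799569 to 9696467 counts on genes per library. LF and its control were sequenced on a NextSeq, with 23925944 to 30172836 counts. The platforms were fitted apart, and levels on them are not compared. Expression is given as CPM, the counts on a gene scaled to a fixed library total after TMM normalisation. A CPM is a share of the counted reads, so fewer transcripts per cell and a larger pool of other transcripts cannot be told apart.

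The 2 untreated HiSeq groups stood apart from each other, and the sources name them differently. Between the control for AMB-LF and the control for AMB, 31.8% of the 5456 genes tested were called, although both groups were untreated cultures. In the sample labels the 6 untreated libraries belong to a control for AMB or a control for AMB-LF, a plot in the study's supplement names the 2 groups the other way around, and the growth protocol gives their durations in the reverse of the sample characteristics. The sample labels were followed. The members and gene lists were also compared with the 2 control groups exchanged and with all 6 untreated libraries as a common control. All 3 controls for AMB-LF were on lane 1, so AMB-LF could be compared with its control within a lane only on lane 1, which held 1 AMB-LF library. Lane 1 also held 2 AMB libraries and 1 control for AMB, and lane 2 held 1 AMB library and 2 controls for AMB. Each comparison within a lane thus has a single library on a side, and its values are given without a call.

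The promoters of TOD6 and DOT6 themselves carry the element that their products bind. The windows searched ran from 250 bases before to 50 bases after the start codon in the R64 genome, on both strands, for PAC written as CGATGAG and for the core of RRPE written as AAAAATTT. PAC occurred in 7.02% of the 6001 windows, the RRPE core in 14.1% and both in 3.17%. TOD6 has PAC at 2 places, DOT6 has it on the opposite strand, SCH9 has an RRPE core, and no match was found in the windows of the other 5 members. A match is a description of the letters and does not show binding. The sites are shown beside those of 2 ribosome biogenesis genes described with the gene lists, NSR1 and NOP58. The element in the repressors' own promoters can so be read against that in genes of this class. Repression of NSR1 and NOP58 by Tod6 or Dot6 was not tested. NOP58 has a further RRPE core that is not shown. Each is written 5′ to 3′ on its gene's strand with the element in capitals, and CTCATCG is PAC read on the opposite strand.
TOD6 PAC, chrII:117343-117369: agatgcgatgCGATGAGatgcgagacc
TOD6 PAC, chrII:117364-117390: gagaccaatgCGATGAGacacttttct
DOT6 PAC, chrV:335227-335253: ttcatccgacCTCATCGaatagcttcc
SCH9 RRPE, chrVIII:509262-509289: aggtacagtcAAAAATTTactcttttgg
NSR1 PAC, chrVII:807827-807853: gcaagggcagCTCATCGcaagaacgaa
NSR1 RRPE, chrVII:807844-807871: ttttttggtgAAAAATTTgcaagggcag
NOP58 PAC, chrXV:898466-898492: atttttcaacCTCATCGaaaattttca
NOP58 RRPE, chrXV:898420-898447: atgctttcgcAAAAATTTcgcatataag
Counted from the start codon, the sites begin at -236 and -215 in TOD6 and at -55 in DOT6. In SCH9 the RRPE core begins at -91, and it was no match when the letters TG were put before the core.

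With AMB, 5 of the 8 regulators were called against the control for AMB, where 37.1% of all 5456 genes tested were called (18.7% higher and 18.4% lower). TOD6, DOT6, IFH1 and FHL1 fell and CRF1 rose. Calls rest on the quasi-likelihood test of edgeR, with p-values adjusted over all genes by the Benjamini-Hochberg method and a threshold of 0.05, and are written as edgeR adjusted p. With AMB-LF, 2 of the 8 were called against the control for AMB-LF, beside 29.2% of all genes (14.1% higher and 15.1% lower). DOT6 fell and SCH9 rose. In 6 of the 8 genes with AMB and in 5 of the 8 with AMB-LF the treated libraries did not overlap their controls, beside 53.7% and 50.8% of all genes tested.

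**Figure D1:**
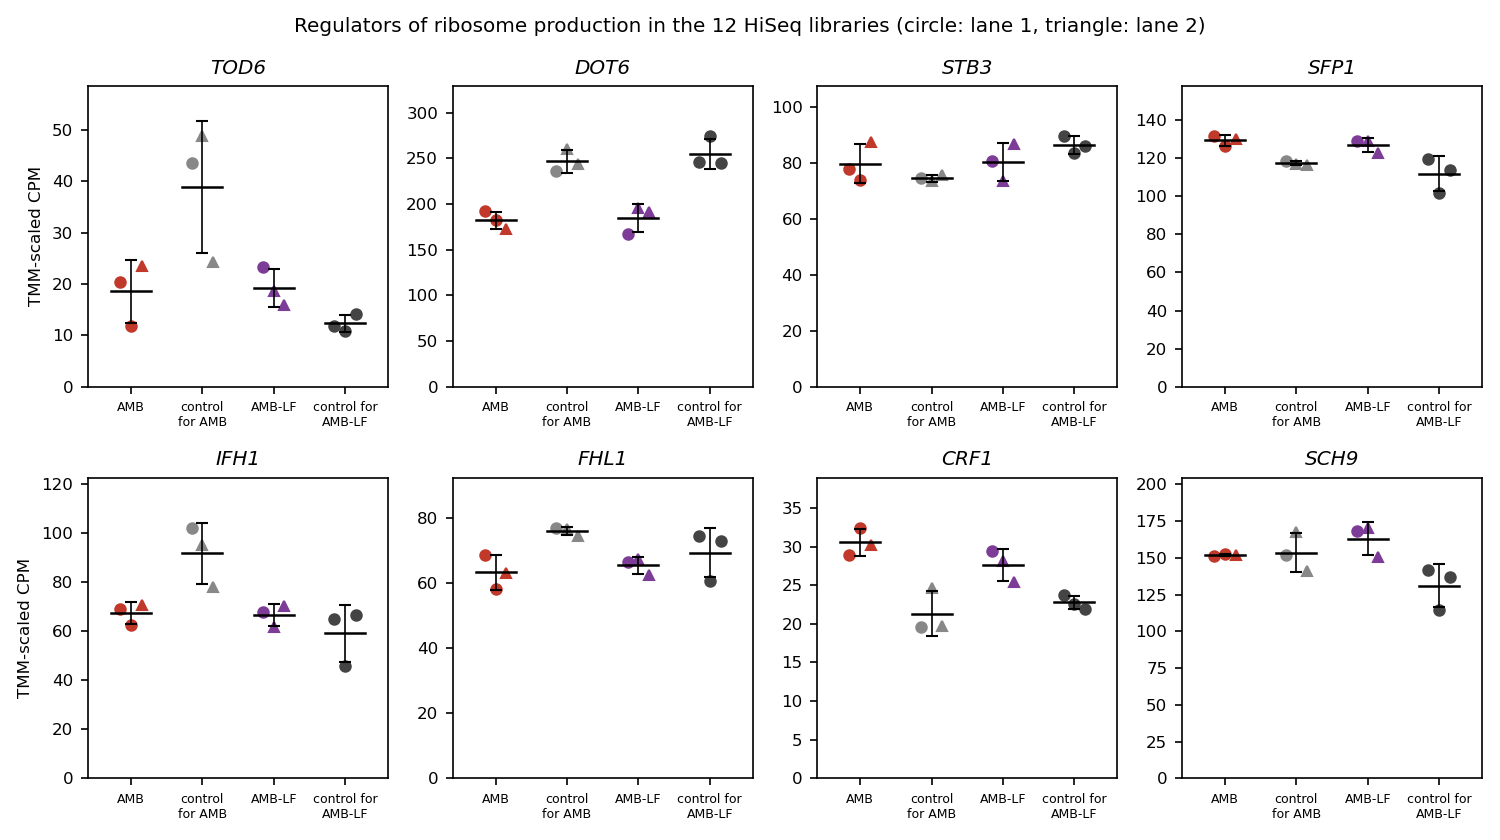
TMM-scaled CPM (y axis, from 0) of the 8 regulators in the 12 HiSeq libraries, by group; circles are lane 1 libraries, triangles lane 2 libraries, and lines and bars the mean ± SD of 3 replicates. DOT6 lay between 167 and 196 CPM in all 6 treated libraries and between 236 and 274 CPM in all 6 untreated ones, while TOD6 was highest in the control for AMB.

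DOT6 (chrV:333176-335188, minus strand) gave the steadiest change among the regulators. It had 192, 182 and 173 CPM with AMB, against 236, 261 and 244 CPM in the control for AMB. With AMB-LF it had 167, 196 and 191 CPM, against 246, 274 and 245 CPM in the control for AMB-LF. All 6 treated libraries lay below all 6 untreated ones. The log2 fold change was -0.41 with AMB (standard error 0.08, edgeR adjusted p = 0.0026) and -0.51 with AMB-LF (standard error 0.09, edgeR adjusted p = 0.0018). DOT6 fell in the same way with the control groups exchanged, by 0.50 with AMB and 0.42 with AMB-LF on the log2 scale, and against all 6 untreated libraries, by 0.46 and 0.45. Within lane 1 the log2 fold change was -0.36 with AMB and -0.62 with AMB-LF, and within lane 2 it was -0.53 with AMB. Without AMB-LF replicate 1, the lowest of its group, the AMB-LF value was -0.35 and was not called (edgeR adjusted p = 0.075).

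TOD6 (chrII:117589-119166, plus strand), the related PAC-binding repressor, fell with AMB as DOT6 did, but lay above its controls with AMB-LF. It had 20.4, 11.8 and 23.5 CPM with AMB, against 43.6, 48.8 and 24.3 CPM in the control for AMB. The AMB libraries lay below their controls, by little at replicate 3 of both groups, and the log2 fold change was -1.08 (standard error 0.28, edgeR adjusted p = 0.012). With AMB-LF, TOD6 had 23.3, 18.7 and 15.9 CPM, against 11.9, 10.9 and 14.2 CPM in the control for AMB-LF. These groups did not overlap either, but the log2 fold change of 0.68 was not called (95% interval -0.04 to 1.41, edgeR adjusted p = 0.14). A fit to these 6 libraries alone, without the lane, did call it, at 0.65. Over the 6 untreated libraries TOD6 ranged from 10.9 to 48.8 CPM, and the range of its 6 treated libraries, 11.8 to 23.5 CPM, fell inside it.

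The direction of TOD6 depended on the control used. With the control groups exchanged, its log2 fold change was 0.61 with AMB, not called, and -1.01 with AMB-LF, called as lower. Against all 6 untreated libraries it was -0.44 with AMB and -0.47 with AMB-LF, and neither was called. With the controls as labelled, the AMB value was -1.47 within lane 1 and -0.62 within lane 2. Without control for AMB replicate 1 it was -0.94 and was not called (edgeR adjusted p = 0.099).

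STB3 (chrIV:792348-793889, minus strand), the RRPE-binding repressor, was called with neither treatment. It had 77.8, 74.0 and 87.8 CPM with AMB, against 74.5, 73.5 and 75.6 CPM in the control for AMB. With AMB-LF it had 80.7, 73.5 and 87.1 CPM, against 89.7, 83.5 and 86.3 CPM in the control for AMB-LF. The groups overlapped in both comparisons, and the 95% intervals of the log2 fold change were -0.05 to 0.29 with AMB and -0.34 to 0.04 with AMB-LF. With exchanged controls STB3 was at -0.14 with AMB and 0.11 with AMB-LF, and against all 6 untreated libraries at -0.01 and 0.01, with no call.

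SFP1 (chrXII:925568-927619, plus strand), the activator of both gene sets, lay slightly above its controls in both treatments without being called. It had 131, 126 and 130.1 CPM with AMB, against 119, 117 and 116 CPM in the control for AMB. With AMB-LF it had 129, 129 and 123 CPM, against 119.7, 102 and 114 CPM in the control for AMB-LF. No treated library overlapped an untreated one. The log2 fold change was 0.13 with AMB (95% interval -0.01 to 0.28, edgeR adjusted p = 0.13) and 0.19 with AMB-LF (0.04 to 0.35, edgeR adjusted p = 0.065). With exchanged controls SFP1 was at 0.21 with AMB, which was called, and at 0.11 with AMB-LF, which was not. Against all 6 untreated libraries it was at 0.17 with AMB (edgeR adjusted p = 0.051) and 0.14 with AMB-LF, with no call. It was also called as higher with AMB-LF without control for AMB-LF replicate 1 (0.28) or without the lane term (0.18).

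IFH1 (chrXII:582233-585490, minus strand), the RP gene coactivator, had 68.9, 62.2 and 70.8 CPM with AMB, against 102, 94.8 and 77.7 CPM in the control for AMB. All AMB libraries lay below their controls, and the log2 fold change was -0.46 (standard error 0.14, edgeR adjusted p = 0.025). With AMB-LF it had 67.6, 61.6 and 70.2 CPM, against 65.0, 45.6 and 66.6 CPM in the control for AMB-LF. There the groups overlapped, with a log2 fold change of 0.21 (95% interval -0.14 to 0.56). As for TOD6, the direction followed the control. With the control groups exchanged, IFH1 was at 0.21 with AMB, not called, and at -0.46 with AMB-LF, called. Against all 6 untreated libraries it was at -0.16 and -0.23, and neither was called. The AMB call was lost without AMB replicate 1 (-0.47), AMB replicate 2 (-0.40), control for AMB replicate 1 (-0.34) or control for AMB replicate 2 (-0.42). Within lane 1 the AMB value was -0.66, and within lane 2 it was -0.27.

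FHL1 (chrXVI:733623-736433, minus strand), which holds Ifh1 at RP promoters, had 68.6, 58.1 and 63.3 CPM with AMB, against 77.1, 76.6 and 74.5 CPM in the control for AMB. The AMB libraries lay below their controls, and the log2 fold change was -0.27 (standard error 0.09, edgeR adjusted p = 0.036). This call was lost when AMB replicate 2 (-0.22), AMB replicate 3 (-0.29), control for AMB replicate 1 (-0.27) or control for AMB replicate 2 (-0.26) was left out. It was also lost with exchanged controls (-0.13), against all 6 untreated libraries (-0.20) and with the replicate number as a block (-0.23). Within lane 1 the value was -0.30, and within lane 2 it was -0.24. With AMB-LF, FHL1 had 66.6, 67.4 and 62.4 CPM, against 74.5, 60.8 and 72.9 CPM in the control for AMB-LF. The groups overlapped, and the 95% interval of the log2 fold change was -0.29 to 0.15.

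CRF1 (chrIV:912099-913502, plus strand), the corepressor at RP promoters, was the member that rose with AMB. It had 28.9, 32.5 and 30.3 CPM with AMB, against 19.5, 24.7 and 19.7 CPM in the control for AMB. With AMB-LF it had 29.4, 28.1 and 25.4 CPM, against 23.7, 22.6 and 21.98 CPM in the control for AMB-LF. All 6 treated libraries lay above all 6 untreated ones. The log2 fold change was 0.52 with AMB (standard error 0.11, edgeR adjusted p = 0.0044). With AMB-LF it was 0.28 (95% interval 0.02 to 0.55, edgeR adjusted p = 0.10), which was not called, and the difference between these changes was not called either (-0.24, 95% interval -0.62 to 0.15). CRF1 was called as higher in both treatments with the control groups exchanged, at 0.43 with AMB and 0.37 with AMB-LF, and against all 6 untreated libraries, at 0.47 and 0.34. Within lane 1 the AMB value was 0.63, and within lane 2 it was 0.46. Without control for AMB replicate 1 it was 0.41 and was not called (edgeR adjusted p = 0.061).

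SCH9 (chrVIII:509363-511837, plus strand), the kinase upstream of the repressors, had 152, 153 and 152 CPM with AMB, against 152, 168 and 141 CPM in the control for AMB. The log2 fold change was -0.02 (95% interval -0.22 to 0.18), and it was 0.22 with exchanged controls and 0.10 against all 6 untreated libraries, with no call. With AMB-LF it had 168, 170.5 and 150.3 CPM, against 142, 115 and 137 CPM in the control for AMB-LF. The AMB-LF libraries lay above their controls, and the log2 fold change was 0.32 (standard error 0.10, edgeR adjusted p = 0.034). This call was lost without AMB-LF replicate 1 (0.32), AMB-LF replicate 2 (0.30) or control for AMB-LF replicate 2 (0.24). It was also lost with exchanged controls (0.09) and against all 6 untreated libraries (0.18). Scaling to library size only (0.23) and the replicate number as a block (0.25) lost it as well. Within lane 1 the value was 0.35.

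**Figure D2:**
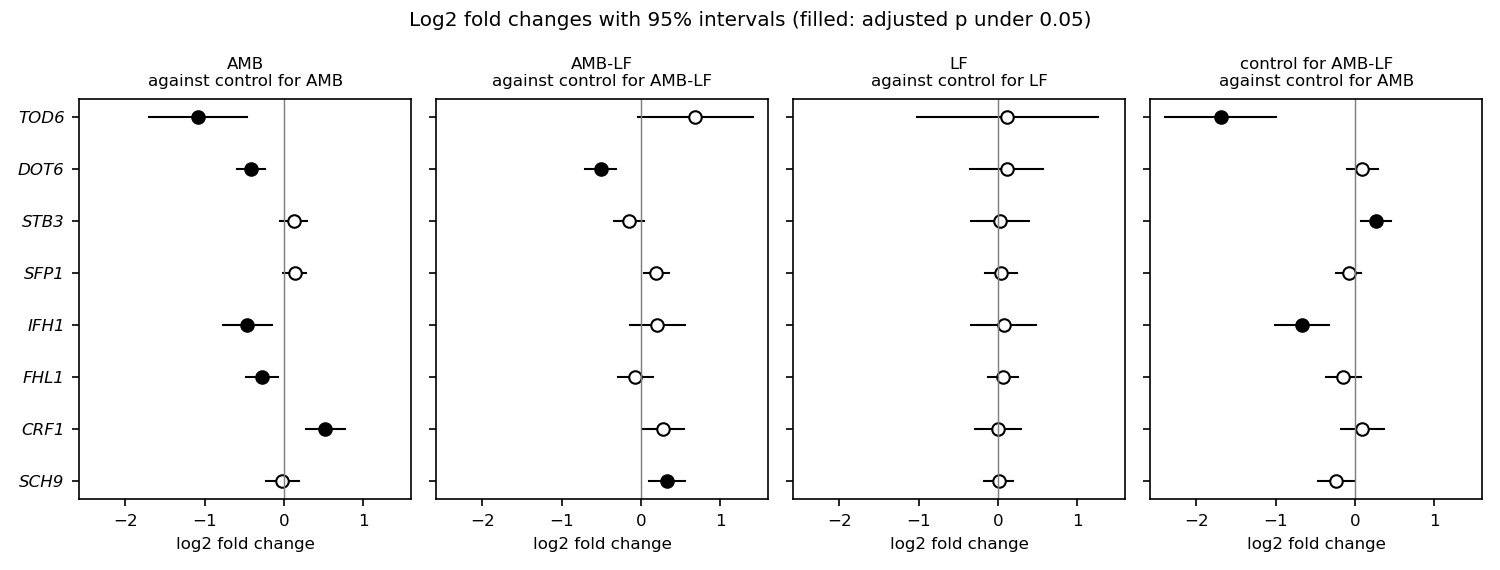
Log2 fold change (x axis) of each regulator (rows) in 4 comparisons, with 95% intervals as lines; filled points had an adjusted p under 0.05. With AMB 5 of the 8 points are filled, with AMB-LF 2, with LF 0, and between the untreated groups 3.

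Over the 12 HiSeq libraries, DOT6, SFP1 and CRF1 were the 3 members whose 6 treated libraries did not overlap the 6 untreated ones, whichever control they belonged to. Of all genes tested, 17.6% had this property. DOT6 was lower in the treated libraries, and SFP1 and CRF1 were higher. SFP1 lay between 123 and 131 CPM in the treated libraries and between 102 and 119.7 CPM in the untreated ones. CRF1 lay between 25.4 and 32.5 CPM in the treated libraries and between 19.5 and 24.7 CPM in the untreated ones.

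**Figure D3:**
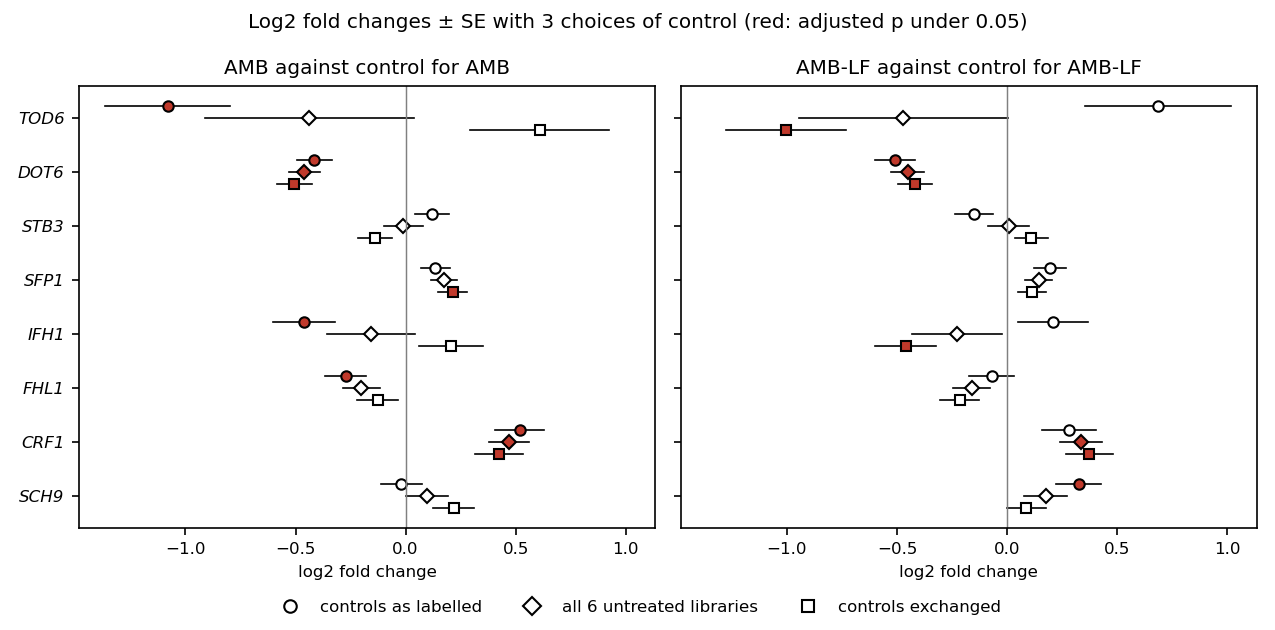
Log2 fold change ± standard error (x axis) of each regulator (rows) with AMB (left) and AMB-LF (right), with the controls as labelled (circles), all 6 untreated libraries (diamonds) and the 2 control groups exchanged (squares); red points had an adjusted p under 0.05. DOT6 stays between -0.51 and -0.41 throughout and CRF1 between 0.28 and 0.52, while TOD6 and IFH1 change sides.

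The treated groups were next to each other in every regulator. Between AMB-LF and AMB, 0 of the 8 members were called by the quasi-likelihood test, by edgeR's likelihood ratio test or by DESeq2, and 0 had an unadjusted p under 0.05 by any of them, beside 0.33% of all genes called and 7.07% with such a p. The log2 fold changes lay between -0.14 (CRF1) and 0.11 (SCH9). The 95% intervals of DOT6 (-0.18 to 0.17), STB3 (-0.18 to 0.16) and SFP1 (-0.16 to 0.12) were the narrowest, and that of TOD6 (-0.57 to 0.72) was the widest. In all 8 genes the AMB-LF and AMB libraries overlapped, while in 15.8% of all genes they did not.

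The untreated groups differed more. Of the 8 members, 3 were called between the control for AMB-LF and the control for AMB, where 15.2% of all genes were higher and 16.6% lower. TOD6 was lower in the control for AMB-LF, at 12.3 ± 1.69 CPM against 38.9 ± 12.9 CPM in the control for AMB (SD, n = 3 each), with a log2 fold change of -1.69 (standard error 0.32, edgeR adjusted p = 0.0027). IFH1 was lower as well, at 59.0 ± 11.7 CPM against 91.5 ± 12.5 CPM (SD, n = 3 each), with a log2 fold change of -0.67 (standard error 0.16, edgeR adjusted p = 0.0076). STB3 was higher, at 86.5 ± 3.08 CPM against 74.6 ± 1.08 CPM (SD, n = 3 each), with a log2 fold change of 0.26 (standard error 0.09, edgeR adjusted p = 0.040). Within lane 1, where control for AMB replicate 1 is the only library of its group, these values were -1.84 for TOD6, -0.81 for IFH1 and 0.19 for STB3. Without control for AMB replicate 1 none of the 3 was called, at -1.51 for TOD6, -0.51 for IFH1 and 0.32 for STB3. The STB3 call was also lost when the control for AMB lacked replicate 2 (0.24) or 3 (0.26), or when the control for AMB-LF lacked replicate 1 (0.21) or 3 (0.26). It was lost as well with DESeq2 (0.24), RLE scaling (0.24), no filter on low counts (0.26), the replicate block (0.28) and a fit to these 6 libraries alone (0.20), with adjusted p between 0.051 and 0.084. Duration and control label differ together between these groups and cannot be told apart.

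The response to AMB-LF minus the response to AMB was called in TOD6 alone among the members, beside 17.5% of all genes. The difference was 1.77 on the log2 scale (standard error 0.45, 95% interval 0.77 to 2.76, edgeR adjusted p = 0.026). It is the difference between the treated groups, 0.08, less that between the control groups, -1.69. The call was lost without control for AMB replicate 1 (1.56), AMB-LF replicate 1 (1.44) or control for AMB-LF replicate 1 (1.76), and with the replicate block (1.34). Within lane 1 the difference was 2.37. With the control groups exchanged the difference was -1.61, also called. The exchange only turns the sign of the -1.69, so this value is set by the same numbers. IFH1 followed with 0.67 (95% interval 0.18 to 1.16, edgeR adjusted p = 0.061). It was called by the likelihood ratio test (0.67) and DESeq2 (0.69), without the lane term (0.61) and, with the opposite sign, with exchanged controls (-0.67). It was also called at 0.72 when control for AMB replicate 3 was left out, and at 0.76 when control for AMB-LF replicate 3 was. For DOT6 the difference was -0.10 (95% interval -0.38 to 0.19). The 2 responses differ in LF and in duration, and these cannot be told apart.

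With LF alone, 0 of the 8 regulators were called against the control for LF, and 0% of the 5445 genes tested were. None of the 8 had an unadjusted p under 0.05 by the quasi-likelihood test, the likelihood ratio test or DESeq2, beside 0.147% of all genes by the quasi-likelihood test. These fits held no term for the day of culture, so differences between days counted as spread and the lack of calls says little. LF and control libraries overlapped in all 8 genes, and in 2.96% of all genes they did not. The replicates were cultured on 3 different days, and the same-numbered LF and control libraries moved together. TOD6 had 102, 128 and 54.2 CPM at replicates 1, 2 and 3 with LF, and 118, 103 and 40.6 CPM at the same replicates of the control for LF. DOT6 had 267, 319.6 and 388 CPM with LF, and 242, 308 and 354 CPM in the control for LF. Replicate 3 was thus the lowest for TOD6 and the highest for DOT6 in both groups. The geometric mean of TOD6 over the 2 libraries of a day differed 2.44-fold between replicates 2 and 3, whereas LF and control differed by at most 1.34-fold within a day. For DOT6 the largest difference between days was 1.46-fold and the largest within a day 1.10-fold.

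The other regulators varied less from day to day. STB3 was higher at replicate 3, with 93.5, 90.7 and 121 CPM with LF and 92.7, 91.8 and 115 CPM in the control for LF. IFH1 was lower there, with 158, 168 and 123 CPM with LF and 159.6, 151 and 115 CPM in the control for LF. SFP1, FHL1, CRF1 and SCH9 differed between days by 1.09-fold to 1.22-fold. With the day as a block, the 95% intervals of the log2 fold change narrowed, to -0.06 to 0.39 for TOD6 and to 0.01 to 0.21 for DOT6, from -1.02 to 1.25 and -0.36 to 0.57 without it. DOT6 was then higher with LF on 3 of 3 days at 0.11 on the log2 scale, with an unadjusted p of 0.038 and an edgeR adjusted p of 0.60, and was not called. In that fit 7.68% of all genes had an unadjusted p under 0.05, and 0 were called. With the day block, 20 genes were called by the likelihood ratio test and 1 by DESeq2, and 0 members were called by either. Those 2 fits were chosen after seeing the data.

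**Figure D4:**
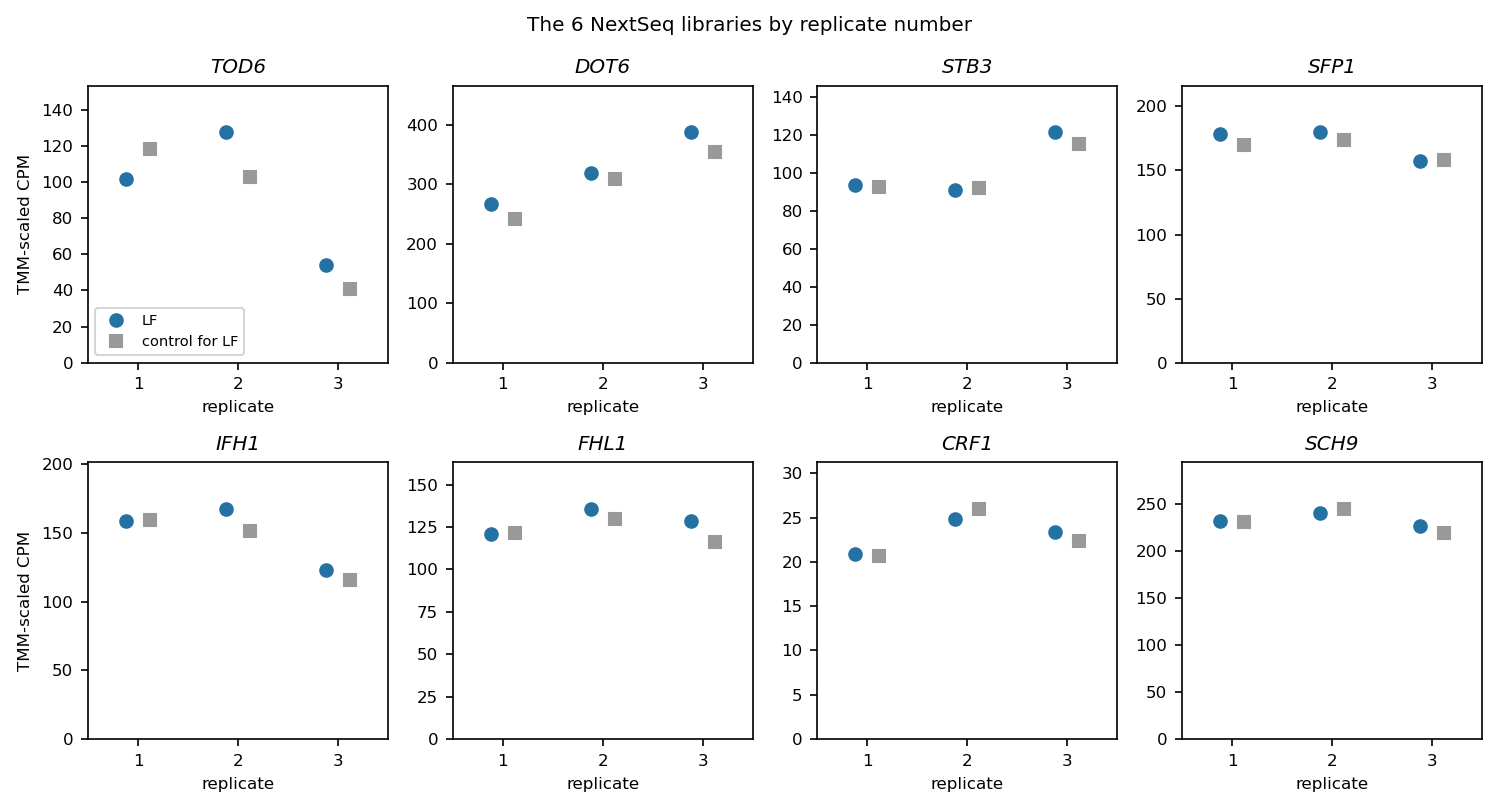
TMM-scaled CPM (y axis, from 0) of the 8 regulators in the 6 NextSeq libraries, by replicate number (x axis), which stands for the day of culture; circles are LF and squares the control for LF. Circle and square lie close together at each replicate, and TOD6 is lowest and DOT6 highest at replicate 3.

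Per kilobase of coding length, which allows genes to be compared, DOT6 was the most abundant of the 8 transcripts in every group. It reached 90.6 ± 4.73 CPM per kb with AMB, 123 ± 6.22 in the control for AMB, 91.8 ± 7.63 with AMB-LF and 127 ± 8.32 in the control for AMB-LF (SD, n = 3 each), and its replicates did not overlap those of the next gene. SFP1, SCH9 and STB3 followed between 48.3 and 65.9 CPM per kb, and SFP1 and SCH9 overlapped in each HiSeq group. FHL1, IFH1 and CRF1 lay lower, between 15.2 and 28.1 CPM per kb. TOD6 was the lowest with AMB (11.8 ± 3.84), with AMB-LF (12.2 ± 2.35) and in the control for AMB-LF (7.81 ± 1.07), below all replicates of the next gene. In the control for AMB it reached 24.6 ± 8.19 CPM per kb and overlapped FHL1, its neighbour above, and CRF1, its neighbour below. On the NextSeq, CRF1 was the lowest, at 16.4 ± 1.44 CPM per kb with LF and 16.4 ± 1.94 in the control for LF.

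The genes whose profile over the 12 HiSeq libraries lay nearest to that of each member were found by the root mean square difference of log2 CPM profiles, each centred on its own mean. For TOD6 they were UTP23 (0.14) and MRD1 (0.16), both needed for processing of small-subunit ribosomal RNA, where the profile of TOD6 itself spread by 0.65 around its mean. For IFH1 they were BUD21 (0.07), a component of the small-subunit processome, and YBR238C (0.08), with a spread of 0.28. For DOT6 they were PCL1 (0.07), a G1 cyclin, and BET5 (0.08), a subunit of a vesicle tethering complex, with a spread of 0.24. For CRF1 they were SIR1 (0.08), a silencing protein, and LAG2 (0.09), with a spread of 0.23. The nearest genes were SNF7 and RSM22 for STB3, NUP116 and TFA1 for SFP1, NDC1 and SFL1 for FHL1, and SKT5 and BUL2 for SCH9, whose own profiles spread by only 0.10 to 0.15. These are descriptions over libraries that share lanes and control groups.

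The genes that the regulators act on followed the same split between the control groups as TOD6 and IFH1. Of 109 ribosome biogenesis factors, 106 fell and 0 rose with AMB, with a median log2 fold change of -0.81 beside -0.02 over all genes, of which 18.4% fell. With AMB-LF, 9 rose and 0 fell, with a median of 0.38 beside -0.01 over all genes, of which 14.1% rose. Called or not, 106 of the 109 had a log2 fold change above 0 with AMB-LF. NSR1, a nucleolar protein of pre-rRNA processing, fell most with AMB, to 60.4 ± 11.6 CPM, against 179.9 ± 50.7 CPM in the control for AMB (SD, n = 3 each; log2 fold change -1.60, edgeR adjusted p = 0.00075). FAL1 and NUG1 followed, each at -1.14. NOP58, a core protein of box C/D snoRNPs, rose most with AMB-LF, to 196 ± 6.56 CPM, against 118 ± 31.4 CPM in the control for AMB-LF (SD, n = 3 each; log2 fold change 0.65, edgeR adjusted p = 0.020), and UTP9 (0.64) and IPI3 (0.57) followed. Between AMB-LF and AMB, 0 of the 109 were called, beside 0.33% of all genes. Between the 2 untreated groups 109 of the 109 were called as lower in the control for AMB-LF, beside 16.6% of all genes. NSR1 was at 0.38 with AMB when the controls were exchanged and NOP58 at -0.59 with AMB-LF, and against all 6 untreated libraries they were at -0.88 and -0.18, with no call. The shares of all genes called in fits with other controls or with a library left out are not given. Counts from such fits, here and for the lists and classes below, thus stand without a share. With exchanged controls 16 of the 109 rose and 0 fell with AMB, and 0 rose and 104 fell with AMB-LF. Against all 6 untreated libraries 0 were called with AMB and 1 fell with AMB-LF. Without control for AMB replicate 1 the number that fell with AMB was 50, and the number that rose with AMB-LF was 0 without AMB-LF replicate 1 and reached 40 when control for AMB-LF replicate 3 was left out.

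Of 133 cytoplasmic RP genes tested, 2 rose and 9 fell with AMB, with a median log2 fold change of -0.21. The 6.77% that fell stand beside 18.4% of all genes, but only 4 of the 133 had a log2 fold change above 0 with AMB. With AMB-LF, 119 rose and 0 fell, with a median of 0.64, and the 89.5% that rose stand beside 14.1% of all genes. Between AMB-LF and AMB, 0 of the 133 were called, beside 0.33% of all genes. Between the untreated groups 131 of the 133 were called as lower in the control for AMB-LF, beside 16.6% of all genes. RPS17B (-0.61), RPL43B (-0.60) and RPS9A (0.51) changed most with AMB, and RPS9A (1.15), RPL28 (1.12) and RPS14B (1.05) with AMB-LF. Many RP genes are near-identical pairs, so their single values are uncertain. Against all 6 untreated libraries, 2 rose and 0 fell with AMB and 0 were called with AMB-LF. With exchanged controls 125 rose and 0 fell with AMB, and 1 rose and 7 fell with AMB-LF. Without AMB-LF replicate 1 the number that rose with AMB-LF was 9, and the number that fell with AMB was 5 without AMB replicate 1 and 0 without AMB replicate 2. It was 0 and 1 when the control for AMB lacked replicate 1 or replicate 2.

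Genes were also grouped by the elements in their promoters. In the 186 genes tested that had both PAC and RRPE, 132 fell and 6 rose with AMB, with a median log2 fold change of -0.64. Of the 217 with PAC alone 91 fell and 30 rose (median -0.19), of the 624 with RRPE alone 194 fell and 77 rose (-0.11), and of the 4377 with neither 584 fell and 900 rose (0.01). With AMB-LF the medians were 0.32, 0.09, 0.10 and -0.04 in the same order of classes, and of the 186 genes with both elements 26 rose and 4 fell. Between AMB-LF and AMB the class with both elements had a median of 0.03 and 0 calls. Between the control for AMB-LF and the control for AMB its median was -0.98. There 145 genes of the class were called as lower and 5 as higher, beside 16.6% and 15.2% of all genes. With exchanged controls 33 genes of this class rose and 3 fell with AMB, and 3 rose and 128 fell with AMB-LF. With all 6 untreated libraries as the control 6 rose and 3 fell with AMB, and 3 rose and 4 fell with AMB-LF. Without control for AMB replicate 1 the number that fell with AMB was 58, and the number that rose with AMB-LF was 4 without AMB-LF replicate 1, 14 without AMB-LF replicate 2, and reached 49 when control for AMB-LF replicate 3 was left out. The class overlaps the list of ribosome biogenesis factors, of which 58.7% have both elements, and these make up 33.7% of the class. TOD6 and DOT6 belong to the class with PAC alone, and their fall with AMB is counted there.

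**Figure D5:**
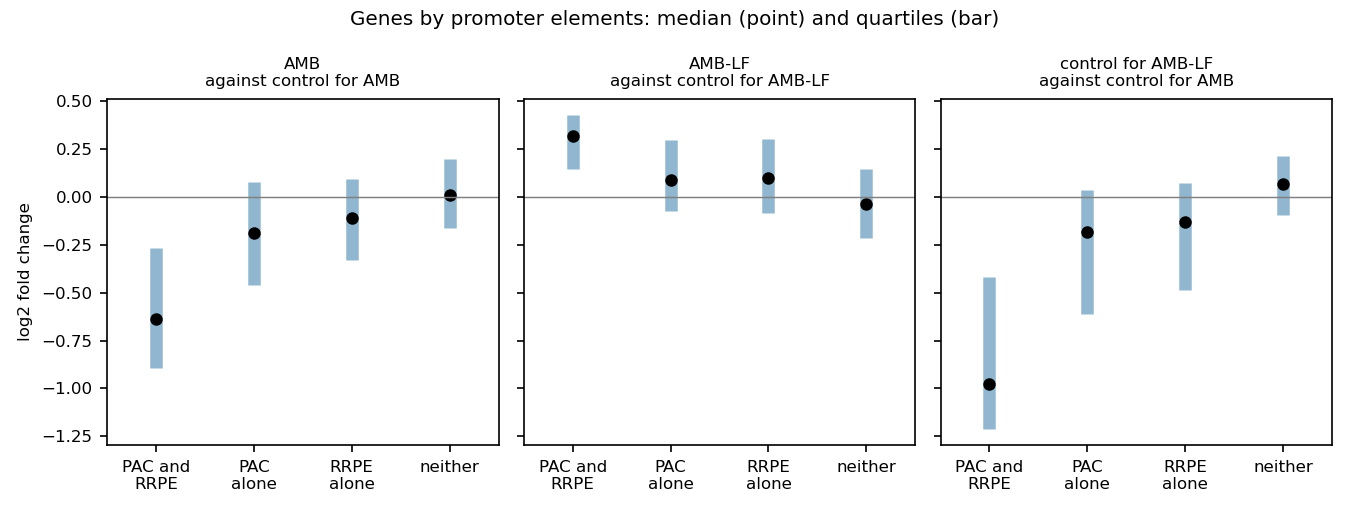
Log2 fold change (y axis) of genes by the elements in their promoter windows (x axis) in 3 comparisons; points are medians and bars the span between quartiles. Genes with PAC and RRPE lie at a median of -0.64 with AMB, 0.32 with AMB-LF and -0.98 between the untreated groups, and genes with neither lie near 0 in all 3.

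The partners of the regulators were grouped in 4 short lists. Their counts in the main fits are read beside the 18.7% of all genes that rose and the 18.4% that fell with AMB. With AMB-LF these shares were 14.1% and 15.1%. Of 12 genes of the Rpd3L complex, 1 rose and 1 fell with AMB, and 0 rose and 1 fell with AMB-LF. SAP30, a core subunit, was at 44.2 ± 4.64 CPM with AMB, against 61.9 ± 8.20 CPM in the control for AMB (SD, n = 3 each; log2 fold change -0.54, edgeR adjusted p = 0.0091). RXT3 rose with AMB (0.27) and RXT2 fell with AMB-LF (-0.34). Of 12 genes of TORC1 and its nutrient inputs, 3 rose and 0 fell with each treatment, a share that lies near that of all genes. They were NPR2 (0.28), IML1 (0.27) and GTR1 (0.23) with AMB, where Npr2 and Iml1 belong to a complex that restrains TORC1 and Gtr1 is a GTPase that activates it. With AMB-LF they were the TORC1 kinases TOR2 (0.34) and TOR1 (0.29) and again GTR1 (0.22), and with scaling to library size only 0 rose and 1 fell.

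Of 12 kinases, phosphatases and substrates around Sch9 and protein kinase A, 5 rose (41.7%) and 1 fell with AMB, and 2 rose (16.7%) and 1 fell with AMB-LF. YAK1, a kinase that phosphorylates Crf1 and is restrained by protein kinase A, had the largest rise with AMB. It was at 212 ± 22.6 CPM with AMB, against 117 ± 11.1 CPM in the control for AMB (SD, n = 3 each; log2 fold change 0.87, edgeR adjusted p = 0.00017). With AMB-LF it was at 189 ± 13.5 CPM, against 147 ± 16.3 CPM in the control for AMB-LF (SD, n = 3 each; log2 fold change 0.35, edgeR adjusted p = 0.048). PKH1, a kinase that phosphorylates Sch9, also rose with AMB (0.44). MRS6, a Rab escort protein that binds Sfp1, rose with AMB-LF (0.52), and BCY1, the regulatory subunit of protein kinase A, fell (-0.27). Of 10 partners at RP promoters, 1 rose and 2 fell with AMB, and 2 rose and 1 fell with AMB-LF. HMO1, a high-mobility-group protein at RP promoters, rose with AMB (0.34) and with AMB-LF (0.38), and RAP1, which binds RP promoters upstream of Fhl1, rose with AMB-LF (0.31). UTP22 (-0.36) and RRP7 (-0.21), which link Ifh1 and casein kinase 2 to ribosomal RNA processing, fell with AMB, and CKB2, a subunit of that kinase, fell with AMB-LF (-0.20). The median log2 fold changes of the 4 lists lay between -0.01 and 0.15 with AMB and between -0.05 and 0.06 with AMB-LF, beside -0.02 and -0.01 over all genes. With exchanged controls the numbers higher and lower with AMB were 0 and 2 for Rpd3L, 1 and 1 for TORC1, 2 and 1 for the kinases and 1 and 1 for the RP promoter partners. With AMB-LF they were 2 and 1, 3 and 0, 5 and 1, and 3 and 0 in the same order of lists. Against all 6 untreated libraries they were 1 and 1, 3 and 0, 2 and 0, and 1 and 0 with AMB, and 1 and 0, 4 and 0, 1 and 0, and 2 and 0 with AMB-LF. Among the partner genes named here, SAP30, GTR1, YAK1 and HMO1 with AMB and TOR1, YAK1, HMO1 and RAP1 with AMB-LF were called in the same direction under each of these 3 choices of control. UTP22 and RRP7 with AMB and BCY1 with AMB-LF changed sign with exchanged controls, at 0.18, 0.19 and 0.13, and were not called there.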

How the data were processed

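Poly-A selected RNA of 18 cultures was sequenced, paired-end and unstranded on a HiSeq (12 libraries) and single-end with a stranded kit on a NextSeq (6 libraries). Reads were aligned by the authors with TopHat and Bowtie (genome R64), and HTSeq (0.5.3p9 for the HiSeq libraries) assigned them to coding sequences irrespective of strand, leaving out reads with ambiguous overlaps, and the raw counts were deposited. Deposited group averages (log2 CPM) and tables of the authors' own fold changes and p-values were not used. Of 6692 identifiers 6005 matched the R64 annotation, and the other 687 held 0.312% of the counts.

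A gene was kept if 6 HiSeq or 3 NextSeq libraries reached 7 CPM (5456 and 5445 genes). The quasi-likelihood test of edgeR 4.0.16 (R 4.3.3) was run on TMM-scaled counts, with the lane as a covariate for the 12 HiSeq libraries, and p-values were adjusted by the Benjamini-Hochberg method. Calls required an adjusted p under 0.05, and intervals are 95% intervals from the fit. The fit was tried on simulated counts drawn without differences between lanes, days or control groups, and so says nothing on these. A pseudocount of 0.5 CPM was used for the profiles. Among the alternatives were DESeq2 1.42.0, edgeR's likelihood ratio test, the replicate block, other scalings and filters, other control groups, single lanes and libraries left out in turn.

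The members and gene lists were chosen with earlier results of these data known, and from each list up to 3 called genes with the largest change per treatment are named, except for 1 gene that is not reported here. Same-numbered LF and control libraries, which the study cultured on the same days, deviated together (r = 0.88, 0.77 and 0.94 across genes), so the numbers pair these samples.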

Additional observations from a re-analysis of the deposited data

Results flagged for a closer look

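The change of TOD6 with AMB-LF minus its change with AMB was 1.77 on the log2 scale by a test of the difference itself (edgeR adjusted p = 0.026, quasi-likelihood). TOD6 was lower in 3 of 3 AMB libraries than in any control for AMB, and higher in 3 of 3 AMB-LF libraries than in any control for AMB-LF. Between AMB-LF and AMB themselves it differed by 0.08, and between their controls by -1.69. With the control groups exchanged, the difference between the responses was -1.61 (edgeR adjusted p = 0.021, quasi-likelihood). The exchange only turns the sign of the -1.69, so this value is set by the same numbers. With the replicate block the difference between the responses was 1.34 and was not called. The call was also lost without control for AMB replicate 1, AMB-LF replicate 1 or control for AMB-LF replicate 1. The sources assign the control labels in opposite ways, and which assignment holds was not tested.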

How the results depend on the processing

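Over 48 values of single regulators (8 genes in 6 comparisons), 808 values under alternatives were computed. Of these, 673 kept their direction and their side of the threshold, 49 lost the call, 12 gained it and 6 reversed; in 68 the sign changed with no call on either side. The 6 reversals came with the control groups exchanged: TOD6 at 0.61 and IFH1 at 0.21 with AMB, TOD6 at -1.01 and IFH1 at -0.46 with AMB-LF, and the difference between the responses at -1.61 for TOD6 and -0.67 for IFH1. The exchange only recombines the same group means, so these 6 values are set by those of the main fit. The cause of each lost or gained call below was not tested.

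The shares of all genes called that are given above belong to the main fits. Counts of regulators, of listed genes or of promoter classes under an alternative cannot be read against them. The number of regulators called with AMB, 5, was 3 with exchanged controls, 2 against all 6 untreated libraries, and lay between 1 and 5 with a library left out. It was 2 on lane 1 alone and 1 on lane 2 alone, but each fit of a lane alone has a single library on a side, which is assumed to vary like the others, and says nothing on stability. With AMB-LF, 2 became 4 with exchanged controls or without the lane term, and 1 with scaling to library size only or on lane 1 alone, with 0 to 3 when a library was left out. The difference of responses gave 1 call, which became 2 with the likelihood ratio test, DESeq2, no lane term or exchanged controls and 0 on lane 1 alone, with 0 to 2 when a library was left out. Between the control groups, 3 became 0 to 3 with a library left out. No member was called for AMB-LF against AMB or for LF under any alternative run, including the replicate block with the likelihood ratio test and with DESeq2, which were chosen after seeing the data.

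In AMB and AMB-LF, treated and control libraries of the same number did not deviate together (r from -0.50 to 0.04 across genes). The sample labels do not say whether they were cultured together. With the replicate block, 4 regulators were called with AMB, 1 with AMB-LF, 0 for the difference of responses (TOD6 at 1.34, adjusted p = 0.19) and 2 between the controls. Scaling to library size only moved the median over all genes with AMB-LF to -0.10 on the log2 scale, with 559 genes higher and 1296 lower in place of 770 and 825; between the controls it gave 1499 and 731 in place of 828 and 906, and for the difference between the responses 459 and 600 in place of 550 and 407. Of 48 mean levels, 7 moved by more than 1 SD under this scaling. Over all genes, the 18 calls for AMB-LF against AMB became 55 with the likelihood ratio test, 63 with DESeq2 and 2 with the replicate block. For LF, 0 calls became 20 and 1 when the day block was combined with these tests.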
